A study of Homo sapiens with 27 samples.

Results

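The comparison described here sets human embryonic stem cells (hESCs) that carry a USB1 mutation together with an inducible USB1 transgene that was left switched off (-Dox) against wild-type hESCs (WT), for their mature microRNAs (miRNAs). It compares 6 of the 27 small RNA libraries of the series, 3 of each group. Both deposited tables listed 1468 mature miRNAs. Of these, 1251 were listed in the tables of all 5 hESC groups and 998 were abundant enough to test. The test was fitted on all 15 hESC libraries, so the other hESC groups helped to set the spread it used. The -Dox cells were H1 hESCs with a CRISPR/Cas9-made single-base deletion in USB1, a change that patients carry, to which a doxycycline-inducible wild-type USB1 (iUSB1-WT) had been added at the AAVS1 locus with zinc finger nucleases, cultured without doxycycline. The WT cells were H1 hESCs, an established line, with neither the mutation nor the transgene. No group received doxycycline in this comparison. The mutation, the inserted transgene and the further rounds of selection that the engineered line went through therefore cannot be told apart, and whether the 3 -Dox libraries came from 1 clone is not given in the sources used here. The other hESC groups entered the fit of the test and are otherwise described only where they bear on the -Dox cells. They were the same engineered cells with doxycycline (+Dox), the USB1 mutant without the transgene, and the USB1 mutant with a short hairpin RNA against PAPD5 (shPAPD5), with 3 libraries each. Whether libraries of the same group are separate cultures is not given in the labels. The paper's captions count 3 biological replicates for miRNA sequencing of WT and mutant hESCs, without saying how these were made. The p-values measure the spread between libraries, part of which may be technical.

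USB1 is a 3' to 5' RNA exonuclease best known for trimming the 3' end of U6 small nuclear RNA, and its loss causes the inherited bone marrow failure syndrome poikiloderma with neutropenia. PAPD5 is a non-canonical poly(A) polymerase that adds adenosines to the 3' ends of many small RNAs, and such tails can mark an RNA for decay by exonucleases. A mature miRNA is cut from an arm of a hairpin and finds its targets mostly through its seed, the bases near its 5' end, so miRNAs with the same seed share many targets. Set against WT, the uninduced cells ask how far cells that carry the mutation and a silent rescue construct depart from the normal stem cell miRNA profile.

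The mature sequences of the miRNAs on which the results turn are given first, 5' to 3', from RefSeq (GRCh38.p14), with bases 2 to 8, the seed, in capitals. The first set is made from neighbouring hairpins in introns of GABRA3 on the X chromosome and was higher in -Dox cells.
miR-105-5p: uCAAAUGCucagacuccuguggu
miR-105-3p: aCGGAUGUuugagcaugugcua
miR-767-5p: uGCACCAUgguugucugagcaug
The second set is made from introns of CALCR on chromosome 7 and was lower in -Dox cells.
miR-653-5p: gUGUUGAAacaaucucuacug
miR-653-3p: uUCACUGGaguuuguuucaaua
miR-489-3p: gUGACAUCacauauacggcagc
The third set holds lower miRNAs beside a relative with the same seed that was not called, which shows how little of the sequence separates them.
miR-146a-5p: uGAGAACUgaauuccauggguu
miR-146b-5p: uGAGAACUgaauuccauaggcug
miR-125b-5p: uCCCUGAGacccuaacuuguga
miR-125a-5p: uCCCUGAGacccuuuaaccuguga
miR-200b-3p: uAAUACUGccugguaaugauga
miR-429: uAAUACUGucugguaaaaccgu
miR-200c-3p: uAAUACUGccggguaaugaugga
The fourth set compares the stem cell clusters on chromosome 19 (miR-372, miR-373) and chromosome 4 (miR-302), which share the seed AAGUGCU.
miR-372-3p: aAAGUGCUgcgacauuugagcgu
miR-373-3p: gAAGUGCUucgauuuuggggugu
miR-302a-3p: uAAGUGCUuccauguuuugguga
miR-302b-3p: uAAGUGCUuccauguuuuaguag
The last pair is both arms of the miR-30a hairpin.
miR-30a-5p: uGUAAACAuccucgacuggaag
miR-30a-3p: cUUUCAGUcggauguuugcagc

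The 3 -Dox libraries held 17880920, 13951206 and 22728118 counts on mature miRNAs and the 3 WT libraries 17359868, 16071219 and 14709905. Levels are given as CPM, in which each count is divided by the size of its library, with TMM factors that allow for a few very abundant miRNAs taking up a different share of each library. They remain relative to the other miRNAs in the library. In these bulk samples fewer cells of a type and less RNA per cell cannot be told apart. The cells carried the stem cell profile of their label: the miR-302/miR-367 cluster summed to between 423982 and 477571 CPM in -Dox libraries and between 435262 and 458449 CPM in WT libraries. WT library 1 stood apart. The chi-squared per degree of freedom between libraries was 278 to 492 for the -Dox pairs, against 577 and 611 for WT library 1 with WT libraries 2 and 3 and 22.2 between WT libraries 2 and 3. On the first principal component of the 15 hESC libraries, which held 24.5% of the variance, the -Dox libraries lay between -4.90 and 2.36, WT libraries 2 and 3 at 6.65 and 8.16, and WT library 1 at 23.6. USB1 mutant library 1, which entered the fit, also stood apart from its group. Its chi-squared per degree of freedom was 2087 and 1937 with mutant libraries 2 and 3. It lay at -21.2 on the second principal component, which held 17.7% of the variance. Values without WT library 1 stand beside the calls that were lost or moved most without it.

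Of 998 miRNAs abundant enough to test, 43 (4.31%) differed between -Dox and WT hESCs at an adjusted p under 0.05 by edgeR's quasi-likelihood test. Of these, 9 (0.902%) were higher in -Dox cells, by log2 changes of 0.71 to 2.23 with a median of 1.12, and 34 (3.41%) were lower, by -4.65 to -0.61 with a median of -1.28. Over all 998 the median change, which the scaling keeps near 0, was 0.00, with 497 below and 501 above 0, so lower miRNAs made up most of the calls but not of the profile. At an unadjusted p under 0.05 there were 180. Fitted on the 6 libraries of the 2 groups alone, the same test called 8 of 929 miRNAs (0.861%). The libraries of the 2 groups did not overlap for 41 of the 43 called, beside 23% of all tested (11.4% higher and 11.6% lower in -Dox). The median log2 CPM was 4.51 over the 43 called and 2.32 over the 9 higher, against 2.27 over all tested, and only 1 of the 47 miRNAs above a log2 CPM of 10 was called, miR-200b-3p, which was lower.

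The number of calls moved with single libraries. Leaving out -Dox library 1 gave 15 calls, -Dox library 2 gave 26 and -Dox library 3 gave 13. Leaving out WT library 1 gave 32 (8 higher, 24 lower, 23 of them among the 43), WT library 2 gave 37 and WT library 3 gave 33. WT library 1 was the highest of the WT libraries for 27 of the 34 lower miRNAs, beside 428 (42.9%) of all 998, and lay over 2 times the mean of the other WT libraries for 12 of the 34, beside 122 of all 998. None of the 43 changed sign in any alternative that was run. For 41 of them the groups did not overlap, so leaving out 1 library could hardly change the sign. Whichever 1 of the 6 libraries was left out, 13 (4 higher, 9 lower) stayed called.

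**Figure D1:**
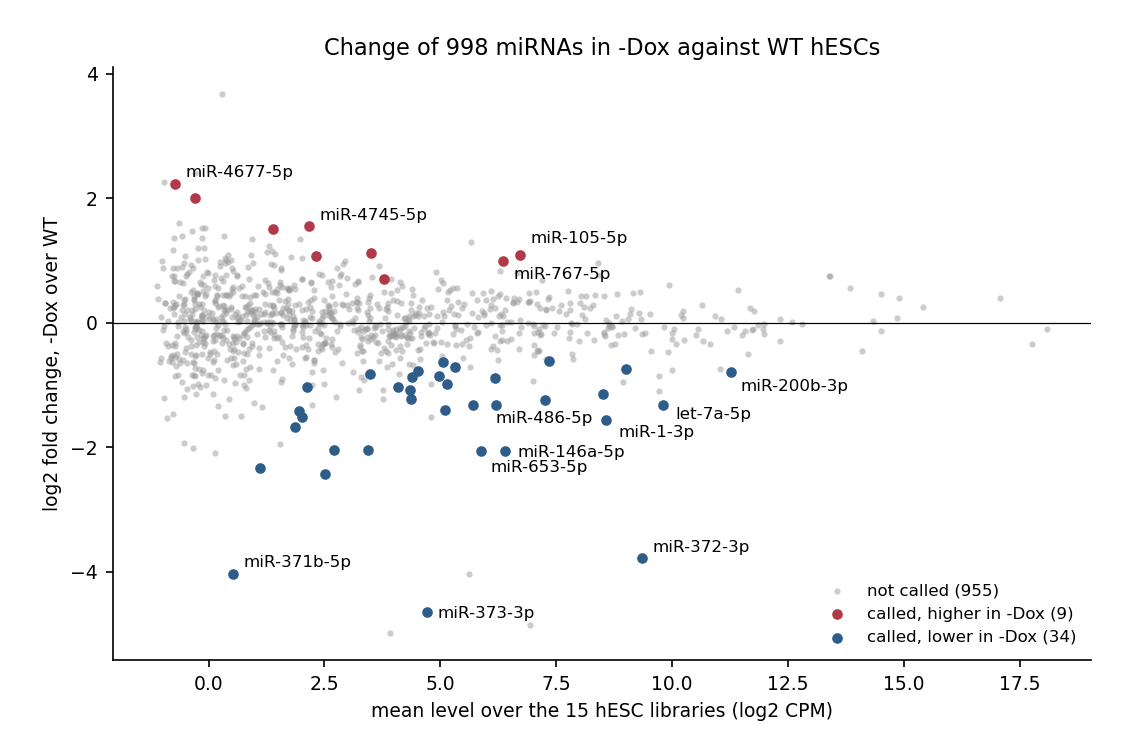
Each point is 1 of the 998 tested miRNAs, with its mean log2 CPM over 15 hESC libraries on the x axis and its log2 fold change, -Dox over WT, on the y axis; red points are the 9 called higher and blue points the 34 called lower in -Dox cells. Above a log2 CPM of 10 a single blue point, miR-200b-3p, stands among 47 miRNAs.

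**Figure D2:**
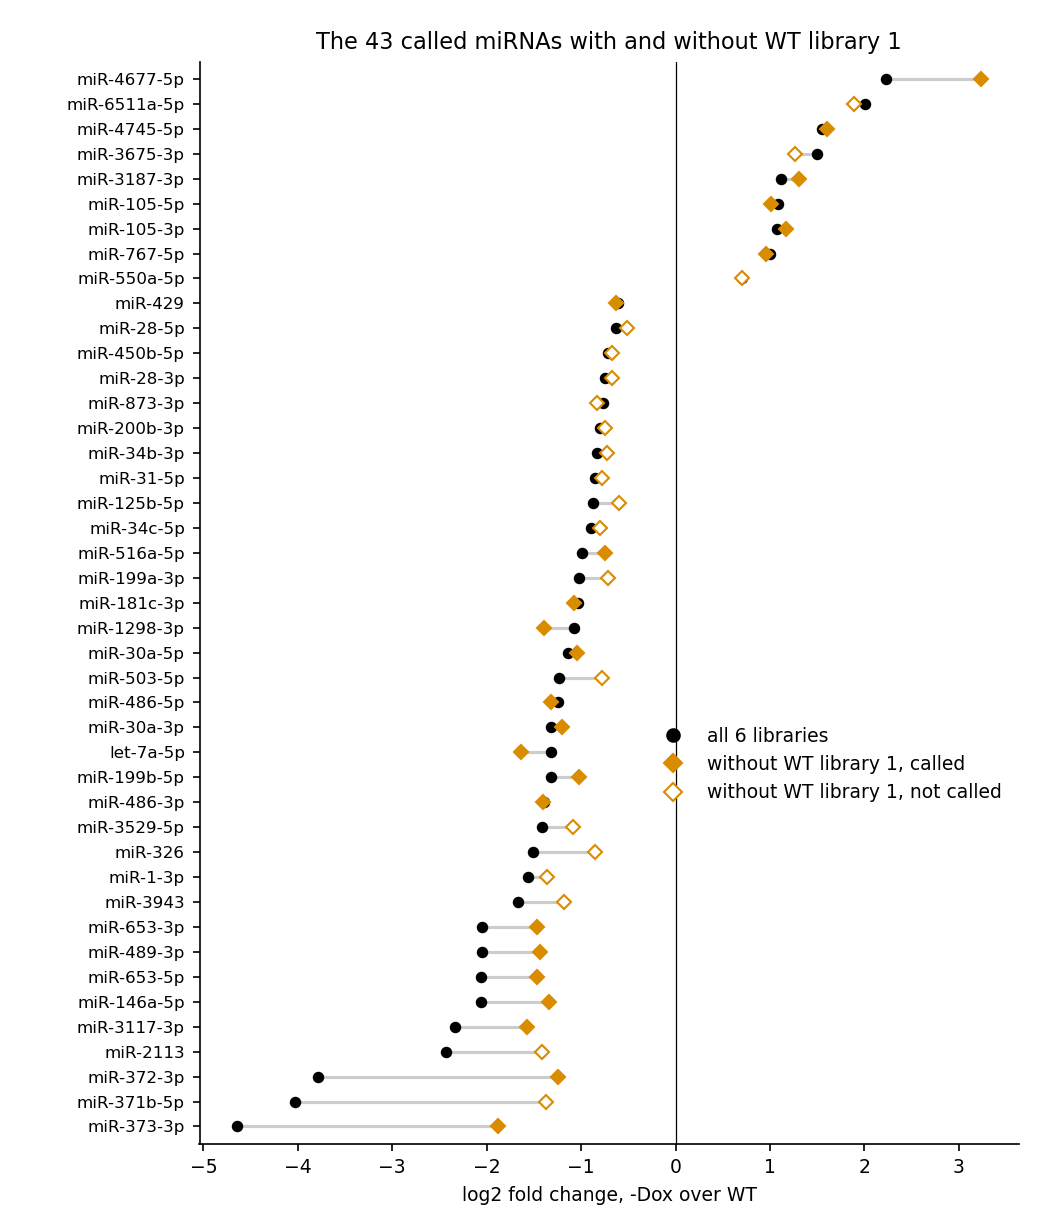
Log2 fold changes (x axis) of the 43 called miRNAs (y axis) from all 6 libraries (black) and without WT library 1 (orange, filled where still called). The lower miRNAs with the largest changes move most, as miR-373-3p does from -4.65 with all libraries to -1.88 without WT library 1.

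Of the 4 miRNAs tested from the GABRA3 introns 3 rose. GABRA3 encodes a subunit of the GABA-A receptor, and its intronic miRNAs are best known from testis and tumours, where miR-767-5p can repress TET enzymes. MIR105-1, MIR767 and MIR105-2 lie on the minus strand of chromosome X between 152392219 and 152394492 (GRCh38) and on the same strand as the gene. miR-105-5p had 112, 144 and 135 CPM in -Dox libraries, against 55.4, 64.2 and 64.95 CPM in WT libraries. Every -Dox library was above every WT library, and the change was 1.08 on the log2 scale (SE 0.15, adjusted p = 0.000927, and 3.53e-10 to 0.0243 over the alternatives). miR-767-5p had 103, 93.4 and 104 CPM in -Dox libraries, against 47.2, 50.8 and 52.6 CPM in WT libraries. It too was higher with no overlap, with an increase of 0.9997 on the log2 scale (SE 0.14, adjusted p = 0.000927). The lower-abundance arm miR-105-3p ranged over 6.21 to 6.78 CPM in -Dox libraries and 2.84 to 3.47 CPM in WT libraries and was higher by 1.07 (SE 0.23, adjusted p = 0.0121). miR-767-3p, the other arm of the miR-767 hairpin, had 9.26, 7.73 and 8.43 CPM in -Dox libraries and 7.32, 7.28 and 6.20 CPM in WT libraries and did not pass the test (log2 change 0.29, SE 0.22, adjusted p = 0.552). Of the 4 GABRA3 miRNAs 3 were thus called higher, beside 0.902% of all tested, with a median change of 1.04. None of the 3 calls depended on a single library. The set was picked with results of these data known and its members come from neighbouring hairpins, so the count only describes it.

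The other 6 higher calls were of low abundance. miR-4745-5p, whose hairpin lies in an exon of the splicing regulator PTBP1 (chromosome 19, 804940 to 805001), ranged over 6.21 to 8.46 CPM in -Dox libraries and 2.03 to 2.55 CPM in WT libraries. Its log2 change was 1.56 (SE 0.30, adjusted p = 0.00602), the call was made in every alternative that tested it, and the other arm, miR-4745-3p, had a log2 change of 0.09 (adjusted p = 0.939). miR-3187-3p, from a hairpin 8583 bases away that lies opposite an exon of PLPPR3, had 14.3, 18.7 and 14.7 CPM in -Dox libraries and 9.01, 6.52 and 6.34 CPM in WT libraries. These did not overlap (log2 change 1.12, SE 0.31, adjusted p = 0.0481), but the call was lost without any 1 -Dox library or without WT library 2 or 3, with an adjusted p of up to 0.152. miR-550a-5p, which shares long runs with miR-550b, had 11.8, 15.5 and 15.7 CPM in -Dox libraries and 8.79, 9.18 and 8.38 CPM in WT libraries. Its rise of 0.71 (SE 0.19, adjusted p = 0.0481) was the smallest of the 9 and was lost without any 1 of the 6 libraries (adjusted p up to 0.187; with WT library 1 left out it was 0.0928). miR-3675-3p (log2 change 1.501), miR-6511a-5p (2.003) and miR-4677-5p (2.23) averaged 3.71, 1.01 and 0.71 CPM in -Dox libraries. In WT libraries they averaged 1.31, 0.25 and 0.14 CPM, so the largest rises rest on WT levels near 0. All stood below 4 CPM in every -Dox library and each lost its call without 5 of the 6 libraries, WT library 1 among them for miR-3675-3p (1.26 without it, adjusted p = 0.0928) and miR-6511a-5p (1.89, adjusted p = 0.115). miR-4677-5p stayed called without WT library 1, where its log2 change was 3.24 (adjusted p = 0.0296). miR-6511a-5p shares a run of 21 bases with miR-6511b-5p, so the split of their reads is uncertain.

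Among the lower miRNAs, those of the miR-30a and miR-486 hairpins were lower whether or not WT library 1 was counted. miR-30a belongs to a family expressed in many tissues, and its hairpin lies in an intron of LINC00472 on chromosome 6 (71403551 to 71403621). miR-30a-5p had 331, 217 and 280.1 CPM in -Dox libraries, against 691, 544 and 593 CPM in WT libraries. miR-30a-3p had 51.1, 59.8 and 49.9 CPM in -Dox libraries, against 153, 114 and 133 CPM in WT libraries. Both arms were lower in every -Dox library than in any WT library, by -1.14 (SE 0.18, adjusted p = 0.00169) and -1.31 (SE 0.20, adjusted p = 0.00161), and by -1.05 and -1.20 without WT library 1. The 5p arms of the rest of the miR-30 family did not pass the test, with log2 changes of -0.50 for miR-30b-5p (adjusted p = 0.461), -0.13 for miR-30c-5p (0.742), -0.29 for miR-30d-5p (0.431) and 0.18 for miR-30e-5p (0.743).

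miR-486 is best known from red blood cell precursors and muscle. miR-486-3p had 22.3, 21.2 and 21.8 CPM in -Dox libraries, against 56.5, 54.2 and 61.2 CPM in WT libraries. This was the lower call with the smallest adjusted p, at -1.39 (SE 0.20, adjusted p = 0.000927) with all libraries and -1.40 without WT library 1. The more abundant miR-486-5p had 109, 78.0 and 97.9 CPM in -Dox libraries, against 202, 241 and 231 CPM in WT libraries. It was lower by -1.24 (SE 0.26, adjusted p = 0.0120), a call lost without -Dox library 2 or 3 (adjusted p up to 0.0666). The 6 miRNAs called under every alternative that tested them were miR-30a-5p, miR-30a-3p, miR-486-3p, miR-4745-5p, miR-767-5p and miR-105-5p.

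The miRNAs of the CALCR introns were all lower. CALCR encodes the calcitonin receptor, and in mice miR-489 is known for keeping muscle stem cells quiescent. MIR653 and MIR489 lie 1081 bases apart on the minus strand of chromosome 7 (93482760 to 93484019), the strand of the gene. miR-653-5p had 46.1, 28.1 and 29.5 CPM in -Dox libraries, against 241, 91.6 and 99.4 CPM in WT libraries. miR-653-3p had 8.53, 5.69 and 4.10 CPM in -Dox libraries, against 41.8, 16.7 and 17.1 CPM in WT libraries. WT library 1 was by far the highest for both arms, but the other WT libraries also lay above every -Dox library. The log2 changes were -2.06 (SE 0.33, adjusted p = 0.00193) for miR-653-5p and -2.05 (SE 0.33, adjusted p = 0.00193) for miR-653-3p, and -1.47 for each without WT library 1 (adjusted p = 0.00403). miR-489-3p, at 2.71 to 5.27 CPM in -Dox libraries and 10.3 to 26.9 CPM in WT libraries, was lower by -2.05 (SE 0.37, adjusted p = 0.00375), or -1.43 without WT library 1 (adjusted p = 0.0133). All 3 CALCR miRNAs tested were called, beside 3.41% of all tested called lower, with a median of -2.05, or -1.47 without WT library 1. All 3 stayed called without any 1 library, but over the alternatives their adjusted p reached 0.0578. This set too was picked with results of these data known, from neighbouring hairpins, so the count only describes it.

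A further 3 lower calls behaved in the same way. miR-146a-5p, which is induced by NF-kB and dampens innate immune signalling, had 61.3, 37.9 and 41.9 CPM in -Dox libraries, against 351, 115 and 124 CPM in WT libraries. It was lower by -2.06 (SE 0.36, adjusted p = 0.00325), or -1.35 without WT library 1 (adjusted p = 0.00403), with an adjusted p of up to 0.0769 over the alternatives. miR-146b-5p, which shares its seed and differs mainly at the 3' end, had 244, 154 and 268 CPM in -Dox libraries and 221, 216 and 240.0 CPM in WT libraries, which overlapped (log2 change -0.02, SE 0.20, adjusted p = 0.983). miR-199b-5p had 48.4, 32.1 and 33.2 CPM in -Dox libraries, against 129, 76.7 and 77.5 CPM in WT libraries. The groups did not overlap, and the change was -1.32 (SE 0.23, adjusted p = 0.00325), or -1.02 without WT library 1 (adjusted p = 0.0113). miR-3117-3p, from an intron of SGIP1 on chromosome 1, ranged over 0.73 to 1.17 CPM in -Dox libraries and 2.41 to 8.90 CPM in WT libraries, a change of -2.33 (SE 0.42, adjusted p = 0.00325), or -1.57 without WT library 1 (adjusted p = 0.0125).

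**Figure D3:**
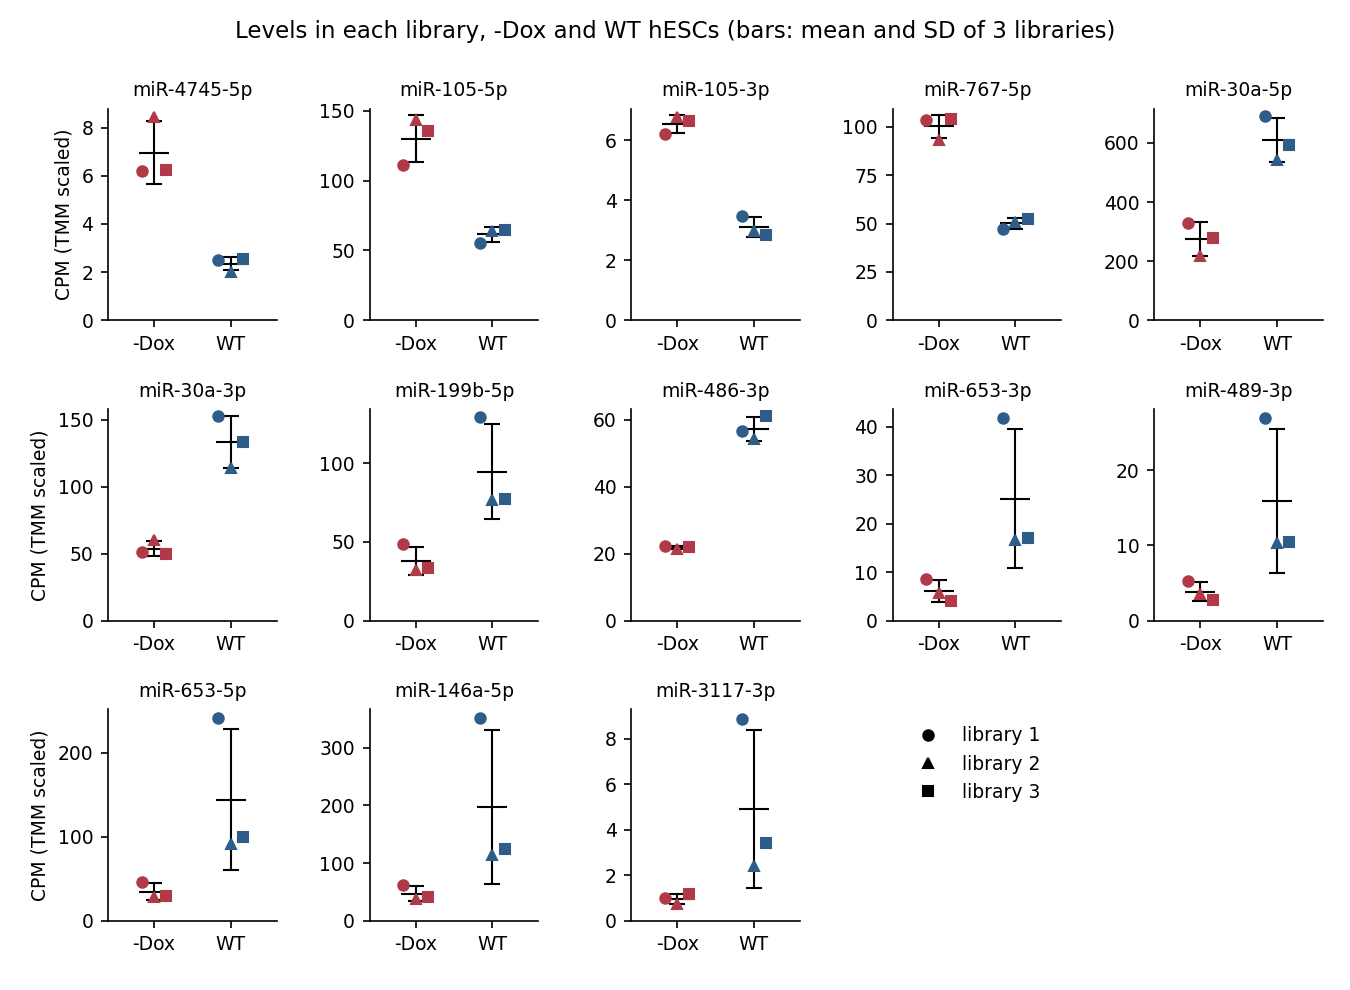
CPM after TMM scaling (y axis, from 0) in the 3 -Dox and 3 WT libraries for the 13 miRNAs that stayed called without any 1 library; symbols give the library number and bars the mean and SD of 3 libraries. In 5 panels of the lower miRNAs (miR-653-5p, miR-653-3p, miR-489-3p, miR-146a-5p and miR-3117-3p) WT library 1 stands at more than 2 times the other WT libraries, and in all 13 panels the groups do not overlap.

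The study followed miR-199a-3p, miR-223-3p, miR-142-5p and the pair miR-125a-5p and miR-125b-5p, miRNAs with roles in blood formation, and picked them at least in part from its own miRNA libraries, so their direction here is not independent evidence. miR-125b-5p had 18.3, 21.6 and 14.9 CPM in -Dox libraries, against 44.7, 28.7 and 26.8 CPM in WT libraries. The libraries did not overlap, and the log2 change was -0.87 (SE 0.22, adjusted p = 0.0333), but -0.60 (adjusted p = 0.1501) without WT library 1, and the call was also lost without -Dox library 1 or 3 (adjusted p up to 0.193). miR-199a-3p had 14.5, 16.5 and 11.9 CPM in -Dox libraries, against 40.1, 21.6 and 25.5 CPM in WT libraries. It was lower by -1.03 (SE 0.24, adjusted p = 0.0254) with no overlap, but by -0.72 (adjusted p = 0.107) without WT library 1, and lost its call without -Dox library 1 or 3 as well (adjusted p up to 0.181). miR-199b-3p, which shares a run of 22 bases with it, had a log2 change of -0.83 (adjusted p = 0.100), and how the counting split reads between them is uncertain.

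miR-125a-5p, with the seed of miR-125b-5p, had 222, 175 and 198 CPM in -Dox libraries and 257, 234 and 213 CPM in WT libraries. These overlapped, and it did not pass the test (log2 change -0.24, SE 0.19, adjusted p = 0.561). miR-142-5p had 0.67, 1.09 and 0.72 CPM in -Dox libraries and 4.503, 1.14 and 1.24 CPM in WT libraries, so WT libraries 2 and 3 lay just above -Dox library 2 (log2 change -1.501, adjusted p = 0.187, and -0.53 without WT library 1). miR-223-3p summed to 18 counts over the -Dox libraries and 11 over the WT libraries and was too rare to test. Of the 5 opposite arms tested edgeR called 0, beside 4.31% of all tested, a share at which 0 of 5 does not set them apart. Of these arms 1 had an unadjusted p under 0.05 and 0 were called by DESeq2. Their log2 changes ran from -1.28 (miR-125b-2-3p, adjusted p = 0.104) to 0.10 (miR-125b-1-3p, adjusted p = 0.904), with a median of -0.76, or 0.09 without WT library 1. The median of the 4 followed miRNAs that were tested was -0.95, or -0.57 without WT library 1, beside 0.00 for all tested.

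The 2 clusters that mark human pluripotent cells gave different pictures. The miR-371 to miR-373 cluster (chromosome 19, 53787675 to 53788773) summed to 211, 269.5 and 137 CPM in -Dox libraries, against 8714, 484 and 484 CPM in WT libraries. WT library 1 stood far above the other WT libraries, which were themselves above every -Dox library. miR-372-3p had 177, 217 and 114 CPM in -Dox libraries, against 6181, 405 and 402 CPM in WT libraries. Its log2 change of -3.78 (SE 0.95, adjusted p = 0.0481) became -1.25 (adjusted p = 0.0307) without WT library 1 and lost its call without any 1 -Dox library (adjusted p up to 0.193). miR-373-3p had 6.52, 2.41 and 2.98 CPM in -Dox libraries, against 271, 15.1 and 14.3 CPM in WT libraries. It was lower by -4.65 (SE 1.06, adjusted p = 0.0365), or -1.88 (adjusted p = 0.00514) without WT library 1, and likewise lost its call without any 1 -Dox library (adjusted p up to 0.184). miR-371b-5p was called at -4.03 (adjusted p = 0.0366) but not without WT library 1 (-1.37, adjusted p = 0.299) or without any 1 -Dox library, and miR-371a-3p lay just outside at -4.04 (adjusted p = 0.0526). These last share a run of 21 bases on opposite strands, so their reads cannot be told apart without strand. All 6 members tested had negative changes and 3 were called, beside 3.41% of all tested called lower. Their median was -4.34, or -1.16 without WT library 1. DESeq2, which gave an adjusted p for miR-371b-5p alone among the 6, called it.

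miR-372-3p and miR-373-3p share their seed, AAGUGCU, with the miR-302 3p arms, and also with miR-302e and with miR-520a-3p to miR-520e-3p. In all, 12 tested miRNAs carried this seed, of which 2 were called lower, beside 3.41% of all tested, with a median of 0.16 over the 12. None of the 10 miR-302/miR-367 miRNAs was called by edgeR, beside 4.31% of all tested. Of the 10, 3 had an unadjusted p under 0.05 and 0 were called by DESeq2. miR-302a-5p had 214047, 202654 and 194162 CPM in -Dox libraries and 282372, 238187 and 254047 CPM in WT libraries. Its arms differed in direction: the 5p arm was below every WT library (log2 change -0.34, SE 0.14, adjusted p = 0.193), while miR-302a-3p, with 22701, 18077 and 27166 CPM in -Dox libraries and 16622, 16967 and 15642 CPM in WT libraries, was above all of them (0.46, SE 0.27, adjusted p = 0.396). miR-302b-3p was also higher in every -Dox library, at 127770, 142652 and 176475 CPM, than in the WT libraries, at 100364, 119767 and 118121 CPM (0.40, SE 0.16, adjusted p = 0.193). No test was made of the difference between arms or between the clusters.

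**Figure D4:**
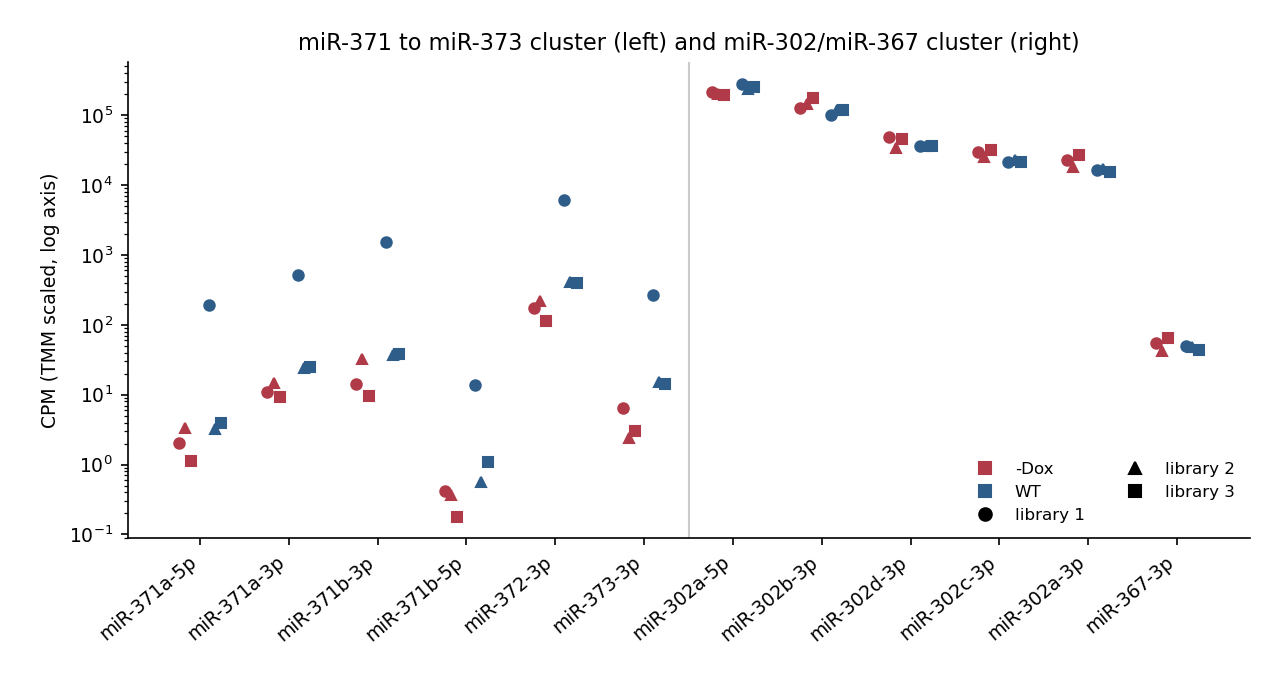
CPM after TMM scaling on a log axis for the 6 tested members of the miR-371 to miR-373 cluster and 6 of the miR-302/miR-367 cluster, in each -Dox (red) and WT (blue) library. WT library 1 (blue circle) lies far above the other WT libraries for each of the 6 miR-371 to miR-373 members, with miR-372-3p at 6181 CPM against 405 and 402 CPM, whereas for miR-302b-3p it is the lowest WT library, at 100364 CPM against 119767 and 118121 CPM.

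The miR-200 family, which keeps epithelial cells epithelial by repressing ZEB1 and ZEB2, was lower in part. miR-200b-3p had 2446, 2488 and 2045 CPM in -Dox libraries, against 4304, 3791 and 4042 CPM in WT libraries. miR-429 had 158, 148 and 138 CPM in -Dox libraries, against 220.2, 236 and 224 CPM in WT libraries. Their hairpins lie 1807 bases apart on chromosome 1 (1167104 to 1169087), and both were lower without overlap, by -0.80 (SE 0.20, adjusted p = 0.0299) and -0.61 (SE 0.14, adjusted p = 0.0254). miR-200b-3p lost its call without any 1 of the 6 libraries, and miR-429 without any of them but WT library 1, with adjusted p of up to 0.187 and 0.184, and without WT library 1 the value of miR-200b-3p was -0.75 (adjusted p = 0.0830). miR-200a-3p, of the same family, was below WT in every library at -0.58 (adjusted p = 0.0935) and was called by DESeq2. miR-200c-3p, made from chromosome 12 with the same seed as miR-200b-3p, had 3221, 3204 and 3125 CPM in -Dox libraries and 3467, 3477 and 3566 CPM in WT libraries (-0.14, SE 0.13, adjusted p = 0.649). Of the 9 family members tested 2 were called lower and 0 higher, beside 3.41% and 0.902% of all tested. The family median was -0.27, or -0.51 without -Dox library 2.

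miR-1-3p, the best-known muscle miRNA, had 259, 342 and 192 CPM in -Dox libraries, against 969, 634 and 738 CPM in WT libraries. It was lower without overlap by -1.56 (SE 0.34, adjusted p = 0.0186), or -1.37 (adjusted p = 0.0654) without WT library 1, and was also lost without -Dox library 1 or 3 (adjusted p up to 0.137). miR-133a-3p, made from the same chromosome 18 cluster as a copy of miR-1, had a log2 change of -1.32 (adjusted p = 0.0918) and was called by DESeq2 (adjusted p = 0.0444). miR-503-5p, whose family restrains cyclins, had 13.7, 20.2 and 16.9 CPM in -Dox libraries, against 60.7, 28.7 and 29.5 CPM in WT libraries. Its change of -1.23 (SE 0.26, adjusted p = 0.0121) was -0.78 (adjusted p = 0.0566) without WT library 1, and the call was also lost without -Dox library 1 or 3 (adjusted p up to 0.0864). miR-450b-5p, 6066 bases from it on the X chromosome, was lower by -0.71 (adjusted p = 0.0299, lost without any 1 library, with -0.67 and an adjusted p of 0.0654 without WT library 1), while miR-450a-5p and miR-424-5p of the same cluster had log2 changes of -0.10 and -0.74 (adjusted p = 0.888 and 0.320).

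let-7a-5p was the only called member of the let-7 family, whose maturation LIN28 blocks in stem cells. It had 606, 809 and 606 CPM in -Dox libraries and 801, 1823 and 2405 CPM in WT libraries. WT library 1, the lowest of its group here, lay below -Dox library 2, so the groups overlapped. The change of -1.32 (SE 0.34, adjusted p = 0.0467) was larger without WT library 1, at -1.64 (adjusted p = 0.00403), and the call was lost without any 1 of the other 5 libraries (adjusted p up to 0.190). The remaining 8 let-7 miRNAs ranged over -0.98 (let-7c-5p, adjusted p = 0.255) to 0.61 (miR-98-5p, adjusted p = 0.409), and the family median was -0.0024. miR-1298-3p, from an intron of the serotonin receptor gene HTR2C, was the other called miRNA with overlapping groups, at 12.9 to 18.0 CPM in -Dox libraries and 17.7 to 43.7 CPM in WT libraries (-1.08, adjusted p = 0.0481, and -1.39 without WT library 1, adjusted p = 0.00403), and its call too was lost without any 1 of the other 5 libraries (adjusted p up to 0.184).

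The other lower calls came from many hairpins. miR-34b-3p (log2 change -0.83, adjusted p = 0.0406) and miR-34c-5p (-0.89, adjusted p = 0.0299) come from a hairpin pair on chromosome 11 that p53 induces. Both lost their calls without any 1 -Dox library, WT library 1 or WT library 3 (adjusted p up to 0.184 and 0.163), with values of -0.73 (adjusted p = 0.110) and -0.80 (adjusted p = 0.0842) without WT library 1. miR-34a-5p had a log2 change of -0.05 (adjusted p = 0.964), and 2 of the 8 p53-induced miRNAs tested were called lower, beside 3.41% of all tested. miR-28-3p, at 430.3, 463 and 401 CPM in -Dox libraries and 791, 681 and 697 CPM in WT libraries, was lower by -0.75 and its other arm miR-28-5p by -0.63. Both arms of miR-28 lost their calls without any 1 of the 6 libraries (adjusted p up to 0.190), with values of -0.67 (adjusted p = 0.0928) for miR-28-3p and -0.52 (adjusted p = 0.154) for miR-28-5p without WT library 1. miR-31-5p (-0.85), miR-873-3p (-0.77), miR-516a-5p of the placental chromosome 19 cluster (-0.99), miR-181c-3p (-1.03), miR-3529-5p (-1.42), miR-326 (-1.51), miR-3943 (-1.67) and miR-2113 (-2.43) completed the lower calls. Without WT library 1 the log2 change was -1.42 for miR-2113 (adjusted p = 0.0897), -0.85 for miR-326 (0.241), -1.18 for miR-3943 (0.115), -1.08 for miR-3529-5p (0.174), -0.83 for miR-873-3p (0.0524) and -0.78 for miR-31-5p (0.0589), none of which was then called. Each of the 8 calls listed was also lost without -Dox library 3, and each but that of miR-516a-5p without -Dox library 1. The 3 calls nearest the threshold by unadjusted p, miR-1298-3p, miR-28-5p and miR-3529-5p, had an adjusted p of 0.0481, and the 3 nearest outside it were miR-371a-3p (0.0526), miR-556-5p (0.0664) and miR-296-3p (0.0675).

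None of the 10 most abundant miRNAs of -Dox cells was called by edgeR, beside 4.31% of all tested. Of the 10, 3 had an unadjusted p under 0.05 and DESeq2 called 1, miR-26a-5p. miR-148a-3p, the top miRNA, had 219342, 331417 and 278658 CPM in -Dox libraries and 226473, 311758 and 346159 CPM in WT libraries, which overlapped (log2 change -0.09, SE 0.29, adjusted p = 0.914). miR-26a-5p had 16028, 14680 and 15029 CPM in -Dox libraries and 20441, 20723 and 21649 CPM in WT libraries. Every -Dox library lay below every WT library (-0.46 on the log2 scale, SE 0.14, adjusted p = 0.0719). miR-7-5p had 13105, 12484 and 13076 CPM in -Dox libraries and 6462, 7845 and 8789.5 CPM in WT libraries, without overlap (0.74 on the log2 scale, SE 0.22, adjusted p = 0.0675). miR-3529-3p, which shares a run of 24 bases with miR-7-5p on the opposite strand, averaged 12850 CPM in -Dox and 7660 CPM in WT libraries, and miR-7-5p 12888 CPM in -Dox and 7699 CPM in WT libraries. The reads of such pairs cannot be told apart without strand. There were 25 tested pairs with an opposite-strand run of at least 20 bases, of which 6 had means within 10% of each other in both groups, and the pair of miR-371a-3p and miR-371b-5p was the only 1 of the 25 with a called member.

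The opposite arm of the hairpin could be tested for 27 of the 39 called miRNAs whose name gives an arm. In 10 it was called in the same direction, which makes 5 hairpins with both arms called: those of miR-28, miR-30a, miR-486 and miR-653, lower, and of miR-105, higher. Of the 17 other arms that were not called, 14 had a change of the same sign and 3 of the opposite sign. Sequences were found for 889 of the 998 tested miRNAs, among them 29 of the 34 lower and all 9 higher. The median GC content was 45.5% in the lower, 52.2% in the higher and 50% in all tested miRNAs, the annotated mature sequence ended in A in 24.1% of the lower, 33.3% of the higher and 18.7% of all, and the median length was 22, 23 and 22 bases. These shares come from few miRNAs and describe the annotated ends, since tails added to individual molecules are not in the count tables. Among the 852 miRNAs with hairpins on a single chromosome, 9 were higher and 25 lower. The X chromosome held 3 higher and 3 lower of 74, and chromosome 7 held 1 higher and 4 lower of 41. Chromosome 19 held 2 higher and 5 lower of 105, with 3 of the 5 from the miR-371 to miR-373 cluster.

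Marker miRNAs of other cell types were read beside these falls, since miR-199, miR-1, miR-486 and miR-146a are used to mark fibroblasts, muscle and blood. Over all 998 tested miRNAs, 3.41% were called lower and 0.902% higher. Of 11 fibroblast miRNAs tested 0 were higher and 2 lower (miR-199a-3p, miR-199b-5p), with a median of -0.46. Of the 11 changes 10 were negative and 1 positive, beside 497 and 501 over all 998. The sum of the 11 ranged over 20366 to 25503 CPM in -Dox libraries and 23355 to 26294 CPM in WT libraries. Most of that sum was miR-21-5p, which many cell types make, and miR-214-3p, made from the same transcript as a copy of miR-199a, had 9 counts over the -Dox libraries and 5 over the WT libraries. Of 14 blood miRNAs tested 3 were lower (miR-146a-5p, miR-486-3p, miR-486-5p) and 0 higher, with a median of -0.26. By sign, 10 of the 14 changes were negative and 4 positive. The positive ones, none called, included miR-451a (0.73), miR-126-3p (0.23) and miR-222-3p (0.19). Blood sums were 7381 to 8689 CPM in -Dox libraries and 8326 to 8810 CPM in WT libraries. Most of the blood sum was miR-221-3p and miR-222-3p, which averaged 3688 and 3578 CPM in -Dox and 4181 and 3147 CPM in WT libraries. The defining miR-142-3p stood at 0.67 to 1.13 CPM in -Dox libraries and 0.73 to 2.98 CPM in WT libraries, with miR-223-3p too rare to test. Of 4 muscle miRNAs tested edgeR called 1 lower (miR-1-3p) and DESeq2 called 2 (miR-1-3p and miR-133a-3p), with a median of -0.70 and sums of 199.9 to 359 CPM in -Dox libraries and 646 to 986 CPM in WT libraries. Nearly all of the muscle sum was miR-1-3p, which averaged 265 CPM in -Dox and 780 CPM in WT libraries. miR-206 had a log2 change of 1.16 (adjusted p = 0.364), and miR-133b had 6 counts over the -Dox libraries and 22 over the WT libraries. Neural (8 tested) and endodermal (6 tested) lists had 0 calls by edgeR and medians of -0.18 and 0.12. DESeq2 called 0 neural and 1 endodermal miRNA (miR-7-5p), and 4 neural and 1 endodermal had an unadjusted p under 0.05. The part of other cell types in the results was not tested.

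The remaining lists held 1 call or none each, where 4.31% of all tested miRNAs were called in either direction. The miR-17-92 family and its paralogs had 0 of 13 called by edgeR (median 0.11), mirtrons, which splicing rather than Drosha releases, 0 of 10 (0.09), and the imprinted 14q32 cluster 0 of 14 (0.53, or 0.00 without -Dox library 2). At an unadjusted p under 0.05 these lists had 2, 1 and 2 members, and DESeq2 called 0 in each. The list for the placental chromosome 19 cluster had 0 higher and 1 lower of 60 (median -0.13, or 0.00 without WT library 1). It was drawn by a range of names and also took in miR-514a-3p from outside the cluster (log2 change 0.41, not called). The guide arms of the miR-10 family, to which miR-99, miR-100 and miR-125 belong, had 1 lower of 7 (median -0.20).

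The same -Dox libraries were set against the USB1 mutant without the transgene and against the +Dox cells. Against the mutant, edgeR called 0 of 998 miRNAs (0%), 89 had an unadjusted p under 0.05, the smallest adjusted p was 0.170 (miR-5011-5p, log2 change -2.67), and DESeq2 called 2. +Dox cells against -Dox cells gave 0 calls by edgeR (0%), 45 at an unadjusted p under 0.05, a smallest adjusted p of 0.355 (miR-3662, log2 change -1.80) and 1 call by DESeq2. The median SE of a log2 change was 0.33 in each comparison, and these counts do not show that the groups were alike. Mutant library 1, which stood apart from mutant libraries 2 and 3, was kept in. Among the miRNAs called against WT, miR-200b-3p averaged 2326 ± 245 CPM in -Dox cells and 1446 ± 452 CPM in mutant cells (log2 change 0.69, SE 0.20, adjusted p = 0.384), and miR-4745-5p stood at 6.96 ± 1.29 CPM in -Dox cells and 3.90 ± 0.20 CPM in mutant cells (0.83, SE 0.29, adjusted p = 0.429). miR-486-5p averaged 95.04 ± 15.8 CPM in -Dox cells and 147 ± 38.2 CPM in mutant cells (-0.63, SE 0.25, adjusted p = 0.537; SD, n = 3 each).

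Each group's comparison with WT uses the same 3 WT libraries, so the values are given side by side only. miR-105-5p averaged 130.2 ± 16.7 CPM in -Dox, 115 ± 2.62 in +Dox, 118 ± 8.23 in mutant, 98.99 ± 7.31 in shPAPD5 and 61.5 ± 5.31 CPM in WT cells (SD, n = 3 each). miR-767-5p averaged 100.3 ± 6.01, 94.0 ± 6.69, 83.9 ± 6.16, 81.8 ± 1.26 and 50.2 ± 2.73 CPM in the same order of groups. WT was the lowest group for both, by more than the spread of any group. miR-653-5p averaged 34.6 ± 10.03 CPM in -Dox, 26.2 ± 3.84 in +Dox, 35.3 ± 10.4 in mutant, 51.5 ± 6.70 in shPAPD5 and 144 ± 83.9 CPM in WT cells. miR-30a-5p averaged 276 ± 57.1, 272 ± 45.6, 271 ± 24.6, 386 ± 26.1 and 609 ± 75.2 CPM in the same order. Both were highest in WT, and for miR-30a-5p the -Dox, +Dox and mutant means differed by less than the SD of any of the 3. Against WT, edgeR called 74 miRNAs (7.41%) in the mutant, of which 29 were higher (2.91%) and 45 lower (4.51%), and 82 (8.22%) in +Dox cells, of which 22 were higher (2.2%) and 60 lower (6.01%). It called 0 (0%) in shPAPD5 cells, where 130 had an unadjusted p under 0.05 and the smallest adjusted p was 0.0510.

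**Figure D5:**
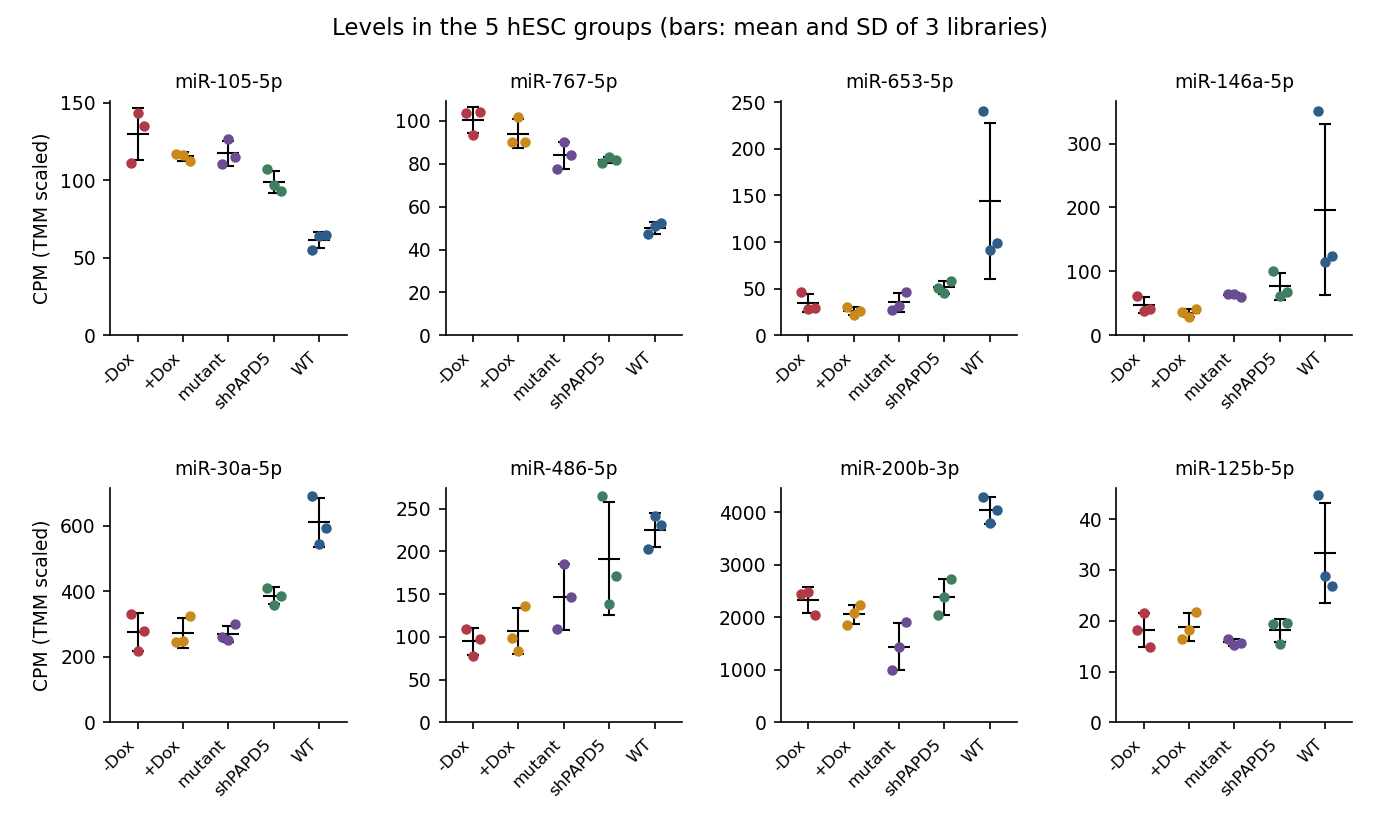
CPM after TMM scaling (y axis, from 0) of 8 miRNAs in the 3 libraries of each of the 5 hESC groups, with the mean and SD of 3 libraries as bars. For miR-105-5p and miR-767-5p all 3 WT libraries lie below every library of the other groups, and for miR-30a-5p all 3 lie above them.

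Not every miRNA of the 2 tables could be tested. Of the 1468 listed in both, 217 were not listed in all 5 hESC tables. A fit of the 6 libraries alone, which could use them, tested 929 miRNAs and called 8 (0.861%), all of them among the 43. These were miR-4745-5p, miR-767-5p and miR-105-5p, higher (0.323%), and miR-486-3p, miR-486-5p, miR-30a-3p, miR-30a-5p and miR-1-3p, lower (0.538%). It included 8 miRNAs outside the main test, of which 0 were called by edgeR, the nearest being miR-4435 (log2 change -2.06, unadjusted p = 0.00733, adjusted p = 0.149). A further 180 miRNAs were listed for -Dox only and 220 for WT only. Each table lists only miRNAs counted at least once in its first library, so an unlisted miRNA had no count in that library, while its counts in the other libraries of the group are not known. The most counted of these were miR-101-2-5p for -Dox, with 30, 0 and 13 counts, and miR-373-5p for WT, with 143, 1 and 3 counts, nearly all of them in WT library 1.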

How the data were processed

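Total RNA was made into small RNA libraries with a Lexogen kit and read on an Illumina NovaSeq instrument. Adapters were removed by the authors (cutadapt 2.5), who then mapped the reads against human miRBase with Bowtie2 2.2.9, allowing no seed mismatch, and counted with SAMtools 1.3.1; strand handling is not given in the sources used here. What was deposited are unnormalised counts of each mature miRNA, 1 column per library. Adaptor entries, 0.00559 to 0.00989% of counts in the 6 libraries, were removed, and 0 columns were left out. The main test was edgeR 4.0.16 quasi-likelihood (R 4.3.3, limma 3.58.1, TMM, robust dispersion, no replicate term) on all 15 hESC libraries, miRNAs listed in all 5 hESC tables and kept by filterByExpr (minimum count 10, minimum total 15), with Benjamini-Hochberg adjustment over 998 miRNAs, which held at least 99.979% of each library's counts. A miRNA was called at an adjusted p under 0.05. The study used DESeq2, which was run here as an alternative (1.42.0), with others on scaling, filter, libraries fitted and replicate number, and with each library left out. Scripts were tested on simulated data.

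Named were the miRNAs the study followed and their opposite arms, every called miRNA (values per library for up to 12 in each direction with no overlap and a mean log2 CPM of 3 or more), their other arms, the 10 most abundant, list members, and the 3 on either side of the threshold. Values of miR-26a-5p, miR-7-5p and the miR-30 relatives stand beside those as abundant or same-seed relatives. The miRNAs and lists were chosen with earlier results of these data known. Hairpin positions and hosts are from the GRCh38 annotation.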

Additional observations from a re-analysis of the deposited data

How the results depend on the processing

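The number of miRNAs called between -Dox and WT, 43, stayed within 1.5 times of that with DESeq2 size factors (43), a CPM minimum of 10 (43) and the DESeq2 test (63, with 20 higher and 43 lower against 9 and 34). It was 28 with library totals (8 higher, 20 lower), 25 with no filter on low counts and 8 with the 6 libraries alone, and 13 to 37 when 1 library was left out. The cause was not tested. Against the mutant the count of 0 became 2 by DESeq2 and 1 with 6 libraries, and for +Dox against -Dox 1 by DESeq2 and 3 with 6 libraries, each staying 0 without any 1 library.

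The labels number libraries 1 to 3 in each group. Same-numbered -Dox and WT libraries did not deviate together (correlations of 0.03, -0.18 and 0.07). With 3 libraries a group, this cannot tell whether same-numbered libraries were handled together. The main test used no pairing. With the replicate number as a block the count was 38 for -Dox against WT (34 of the 43), and 0 for both other comparisons. None of the 43 called miRNAs changed sign in any alternative, but the groups did not overlap for 41 of them, so leaving out 1 library could hardly change it. The median change of the opposite arms of the miRNAs the study followed did change sign without WT library 1. Depth limits rare miRNAs most: the median SE was 0.60 below a log2 CPM of 0 and 0.19 above 10.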
